A study of Mus musculus with 8 samples.

Results

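The loci described here are the protein-coding loci of the authors' merged annotation whose longest reference-matched transcript spans 200000 nucleotides (nt) or more of the mouse genome, from the start of its first exon to the end of its last. Loci count as protein-coding if any of their transcripts has a coding-sequence identifier, and 964 of 19989 protein-coding loci, among 31020 loci in all, met the rule. The rule itself leaves out 3 further loci. Span was read from the annotation alone and not from a count or FPKM, but the members were chosen with earlier results of these data known. RNA came from bone marrow-derived macrophages of C57BL/6 mice, which are cells grown in culture from bone marrow. Cells given IL-4 (interleukin-4, a cytokine of allergic and anti-parasite responses) supplied 4 libraries and untreated cells another 4, and the labels used here give no dose or time. The series' design calls the samples of a group biological replicates, but no label ties a sample to an animal. The p-values therefore reflect only how these samples vary, and part of that variation may be technical. The comparison asks which of the longest coding loci differ in RNA abundance, and in the start sites they use, after IL-4.

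A very long gene is almost all intron: the polymerase copies the whole locus, the introns are spliced out, and the mature RNA is no longer than that of many short genes. Such loci often carry several promoters, so that a full-length transcript and shorter ones that begin far inside the locus can be made side by side, and other genes can lie within their introns. In many tissues very long genes are known for coding cell adhesion, channel, scaffold and signalling proteins. IL-4 acts on macrophages through its receptor and the transcription factor STAT6 and turns genes on as well as off. The files do not pair their identifiers with gene names, and 0 of 175547 identifiers occurred in the reference tables at hand, so loci are given by their position in the mm9 build and no gene is named. For the same reason the macrophage identity of the samples could not be checked against marker genes.

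The 964 loci had a median span of 322.5 kb, the longest reached 2750 kb, and exons covered a median of 1.95% of a locus. The longest reference transcript had a median of 16 exons. More than 1 annotated start site was present at 660 loci, and 421 held transcripts that the authors assembled in addition to the reference ones. At 61 loci at least 10% of the exonic positions overlapped exons of another locus, and 7 loci joined separate groups of reference transcripts, so that their value may stand for several genes. Counts of the overlapping loci are uncertain, because the sources used here do not give how strand and multiply assigned reads were counted.

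Total counts ran from 23071022 to 27783417 per library. The libraries of replicate 4 stood apart from the others: 5525 counts fell on the 18 loci of chromosome Y in IL-4 replicate 4 and 5808 in untreated replicate 4, against at most 7 in any other library. Replicate 4 of each group is thus no technical repeat of the other replicates of its group. The single member on chromosome Y had 0 counts in all libraries. Levels are given as CPM, in which a locus's counts are scaled to the total count of the library, or as FPKM, which scales fragments by transcript length and depth and was estimated per transcript by the authors. Fold changes come from a fit with TMM factors, which moved the median of all tested loci up by 0.11 on the log2 scale relative to scaling by total counts. In bulk RNA, fewer cells of a type and less RNA per cell cannot be told apart.

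Of the 964 loci, 465 (48.2%) had enough counts to be tested, against 54.3% of the 19022 coding loci with a span under the threshold. The loci left untested included 162 with 0 counts in all 8 libraries, and they were longer, with a median span of 369.4 kb against 287.2 kb for the tested loci. RNA rose at 144 of the 465 tested loci (31.0%) and fell at 152 (32.7%) with IL-4, and 169 were not called (edgeR quasi-likelihood test, Benjamini-Hochberg adjusted p under 0.05, two-sided). Over all 13761 tested loci 25.6% were higher and 26.2% were lower, and over the 10329 tested coding loci outside the set 27.2% were higher and 26.7% lower (53.9% in either direction, against 51.8% over all tested loci). These shares, and those that follow, describe a list and were not tested against each other.

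Large changes made up a bigger share of the very long loci than of all tested loci. Rises of at least 2-fold were called at 66 very long loci (14.2%, against 8.03% of all tested loci and 7.09% of the coding loci outside the set) and falls of at least 2-fold at 54 (11.6%, against 8.04% and 6.90%). A rise of at least 4-fold was called at 32 loci (6.88%, against 3.93% and 3.33%) and a fall of at least 4-fold at 14 (3.01%, against 2.34% and 2.06%). Tested against a change of 1.5-fold with glmTreat, 71 loci rose (15.3%, against 9.02% and 8.51%) and 59 fell (12.7%, against 8.91% and 8.39%). The median size of the log2 fold change, regardless of sign, was 0.47 at the very long loci, 0.32 over all tested loci and 0.30 over the shorter coding loci. The median signed log2 fold change was -0.048 at the very long loci and -0.022 over all tested loci. The median count per library was 507.2 at the very long loci, 431.0 over all tested loci and 685.8 over the shorter coding loci, and the part of depth in the shares called was not tested. The CPM of the groups did not overlap at 273 of the 465 loci (58.7%, against 50.2% of all tested loci and 52.4% of the coding loci outside the set), and 250 of these were called.

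**Figure D1:**
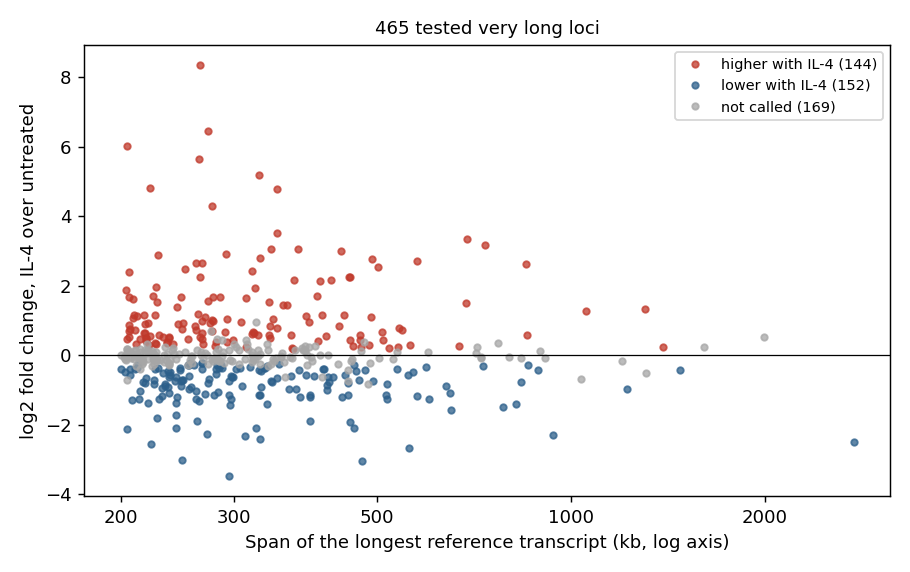
Log2 fold change of IL-4 over untreated cells (vertical axis) against the span of the longest reference transcript in kb (horizontal log axis) for the 465 tested very long loci, with 1 point per locus. The 144 loci called higher (red) and the 152 called lower (blue) occur at all spans up to 1000 kb, the largest rise reaches 8.35 and the largest fall -3.46, and the longest locus of all, at 2750 kb, lies at -2.48.

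The direction of the change showed little relation to the span. Across the 465 loci the correlation of log2 fold change with span was -0.05 (Spearman) and -0.05 (Pearson, log10 span), a description across loci of the same libraries. The share of loci called did differ along the span classes of all coding loci. Among loci under 10 kb 52.5% of the tested ones were called in either direction, and among those of 10 to 50 kb, 50 to 100 kb and 100 to 200 kb the shares were 53.7%, 54.2% and 58.2%. Within the very long loci the shares were 62.5% at 200 to 300 kb, 63.4% at 300 to 500 kb and 69.5% at 500 kb and over. The share past the 1.5-fold test ran in the same order, with 21.9% at 100 to 200 kb, 26.1% at 200 to 300 kb, 28.1% at 300 to 500 kb and 35.6% at 500 kb and over. Fewer of the longest loci could be tested: 60.4%, 45.3% and 28.5% in the 3 classes from 200 kb on. The last class holds 59 tested loci, of which 18 rose and 23 fell. The order of the classes was not tested, and whether the filter on counts has a part in it was not tested.

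**Figure D2:**
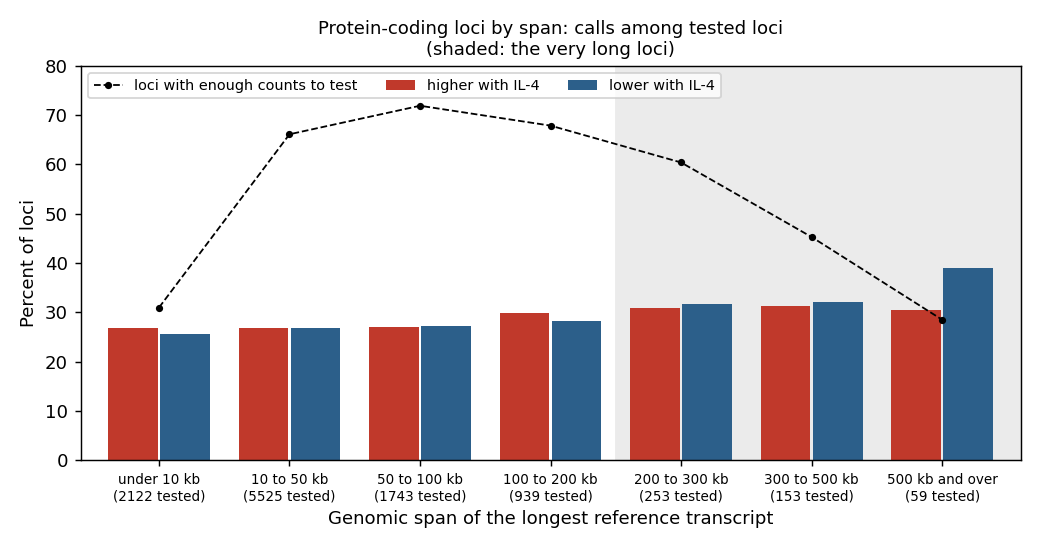
Percent of tested protein-coding loci called higher (red bars) and lower (blue bars) with IL-4 by span of the longest reference transcript, and percent of loci with enough counts to test (black dashed line); the number tested stands under each class, and shading marks the very long loci. Calls in either direction make up 52.5% of the shortest class and 69.5% of the longest, while the testable share falls to 28.5% in the longest class.

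As a group the very long loci took a small part of the reads. They held 2.13% ± 0.08 of all counts in the IL-4 libraries (SD, n = 4, range 2.06% to 2.23%) and 2.39% ± 0.16 in the untreated libraries (SD, n = 4, range 2.19% to 2.58%), so the ranges overlapped slightly. The 10 loci with the most counts held 24.6% of this part.

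The largest rise was at chr19:57107754-57389409 (XLOC_014149, minus strand), a locus with 7 start sites whose longest reference transcript has 13 exons over 265.5 kb. Its RNA stood at 20.5, 12.9, 13.4 and 21.1 CPM in the 4 IL-4 libraries, against 0.0807, 0, 0.130 and 0 CPM in the 4 untreated libraries. The untreated libraries thus held 5 counts in all. The largest rises and falls were chosen among called loci whose groups do not overlap, so that separation is set by the choice. The ratio of the summed counts, 1778 against 5, was 334.8 relative to depth (95% exact binomial interval 143.2 to 1032), and the fitted log2 fold change was 8.35 ± 0.41 (SE; edgeR, adjusted p = 5.24e-08). Without untreated replicate 3 the ratio was 640.9 (177.2 to 5296), with 2 untreated counts left. The transcript that put the locus in the set was not the one measured: in IL-4 cells nearly all of the 2.05 ± 0.46 FPKM lay on shorter transcripts, and an assembled transcript of 16 exons that begins 195.9 kb inside the locus carried 64.7% of it.

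At chr18:40418015-40692062 the IL-4 libraries held 130 counts and the untreated libraries 1, a ratio of 122.4 (95% exact interval 21.6 to 4871; edgeR adjusted p = 1.31e-05). That single count was in untreated replicate 2, and without this library the locus was at least 29.8-fold higher with IL-4, computed against a floor of 3 counts over the group. At chr18:75979832-76308218 there were 127 counts with IL-4 and 3 without, a ratio of 39.9 (13.3 to 195.8; edgeR adjusted p = 4.03e-06). What was measured differed between them. At chr18:40418015-40692062 the FPKM of IL-4 cells, 0.506 ± 0.141, lay on transcripts under 200 kb, with 55.4% on an assembled transcript of 2 exons that begins 149.6 kb inside the locus (0.280 ± 0.326 FPKM; SD, n = 4). At chr18:75979832-76308218 transcripts of over 200 kb held 99.99% ± 0.02 of the FPKM in IL-4 cells (SD, n = 4).

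Rises 3, 4, 6 and 7 in the order of size were at chr14:102129145-102333910 (log2 fold change 6.02 ± 0.35), chr1:81073525-81338339 (5.65 ± 0.42), chr12:45953473-46175470 (4.83 ± 0.25) and chr2:75827290-76177164 (4.80 ± 0.46), with edgeR adjusted p-values from 8.12e-08 to 7.13e-06. The chromosome 12 locus has a single annotated transcript of 6 exons, so its counts were read on that transcript alone. It stood at 6.81, 8.10, 7.89 and 4.58 CPM in IL-4 libraries, against 0.323, 0.262, 0.217 and 0.209 CPM in untreated libraries. At the loci on chromosomes 14 and 1, the transcripts of 200 kb or more held 0.690% ± 1.38 and 4.05% ± 2.53 of the FPKM in IL-4 cells (SD, n = 4), and assembled transcripts that begin 139.4 kb and 89.95 kb inside the locus carried 71.7% and 93.4% of it. The log2 fold change of the locus at chr2:75827290-76177164 was 5.49 without untreated replicate 4 and 5.69 without both replicate 4 libraries.

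The locus at chr5:117863320-118225126 (XLOC_020755, plus strand, 19 exons) was the most abundant of the 10 largest rises. It reached 49.4, 70.9, 56.5 and 44.8 CPM in IL-4 libraries, against 2.50, 6.67, 7.02 and 4.63 CPM in untreated libraries. The log2 fold change stood at 3.52 ± 0.25 (SE; edgeR, adjusted p = 7.29e-07). Both kinds of transcript had more FPKM with IL-4 there: those of 200 kb or more stood at 1.35 FPKM in IL-4 cells and 0.110 FPKM in untreated cells, and the shorter ones at 2.60 FPKM in IL-4 cells and 0.295 FPKM in untreated cells. The remaining 2 of the 10 were low: chr7:120909512-121186889 held 87 counts with IL-4 and 4 without, with 37.7% of its exonic positions shared with another locus, and chr2:134611900-135300994 held 126 and 12.

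The largest fall was at chr9:118515778-118810121 (XLOC_028601, plus strand, 28 exons over 294.3 kb). It had 0.464, 0.684, 0.292 and 0.444 CPM in IL-4 libraries, against 4.44, 7.95, 7.11 and 3.38 CPM in untreated libraries. The log2 fold change was -3.46 ± 0.33 (SE; edgeR, adjusted p = 6.15e-06). In untreated cells 71.3% of its FPKM lay on the 294.3 kb reference transcript. The next falls were at chr2:144993849-145467675 (log2 fold change -3.03 ± 0.20) and chr18:12492281-12742569 (-3.01 ± 0.18), the second with a reference transcript of 75 exons.

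The most abundant of the 10 largest falls was at chr9:94569701-95130953, a locus of 16 exons over 560.6 kb. Its level was 21.2, 13.6, 14.7 and 31.5 CPM in IL-4 libraries, against 163.7, 127.9, 146.1 and 121.1 CPM in untreated libraries. The log2 fold change stood at -2.67 ± 0.24 (SE; edgeR, adjusted p = 4.14e-06). Nearly all of this signal lay on the long transcript: the 560.6 kb reference transcript held 96.3% of the FPKM in IL-4 cells and 98.7% in untreated cells, at 4.01 ± 1.66 FPKM with IL-4 and 26.9 ± 3.95 FPKM without (SD, n = 4 each).

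The longest locus of the set is also among the 10 largest falls. It lies at chr12:114493110-117248164 (XLOC_006193, minus strand), spans 2750 kb and has a reference transcript annotated with 681 exons and 22 start sites in all. It had 8.36, 8.03, 6.01 and 11.7 CPM in IL-4 libraries, against 54.2, 50.1, 52.1 and 49.7 CPM in untreated libraries (log2 fold change -2.48 ± 0.16; edgeR, adjusted p = 3.62e-07). The untreated libraries were close together. Transcripts of 200 kb or more held only 0.0681% ± 0.0516 of its FPKM in IL-4 cells and 0.0346% ± 0.0154 in untreated cells (SD, n = 4 each). A single-exon reference transcript of 194 nt carried 49.2% of the FPKM with IL-4 and 52.8% without, so the FPKM lay on short transcripts inside the locus. FPKM divides by transcript length, so these are not shares of the reads.

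The other falls among the 10 had log2 fold changes from -2.55 to -2.27, at chr14:47502604-47725492, chr2:135485283-135840324, chr3:58809747-59122565, chr6:143781349-144730497 and chr3:135716328-135989010. Their levels averaged from 0.241 to 1.01 CPM in IL-4 cells and from 1.29 to 6.42 CPM in untreated cells, and their edgeR adjusted p-values lay between 2.12e-06 and 0.00162. At chr3:58809747-59122565, 22.5% of the exonic positions are shared with another locus.

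**Figure D3:**
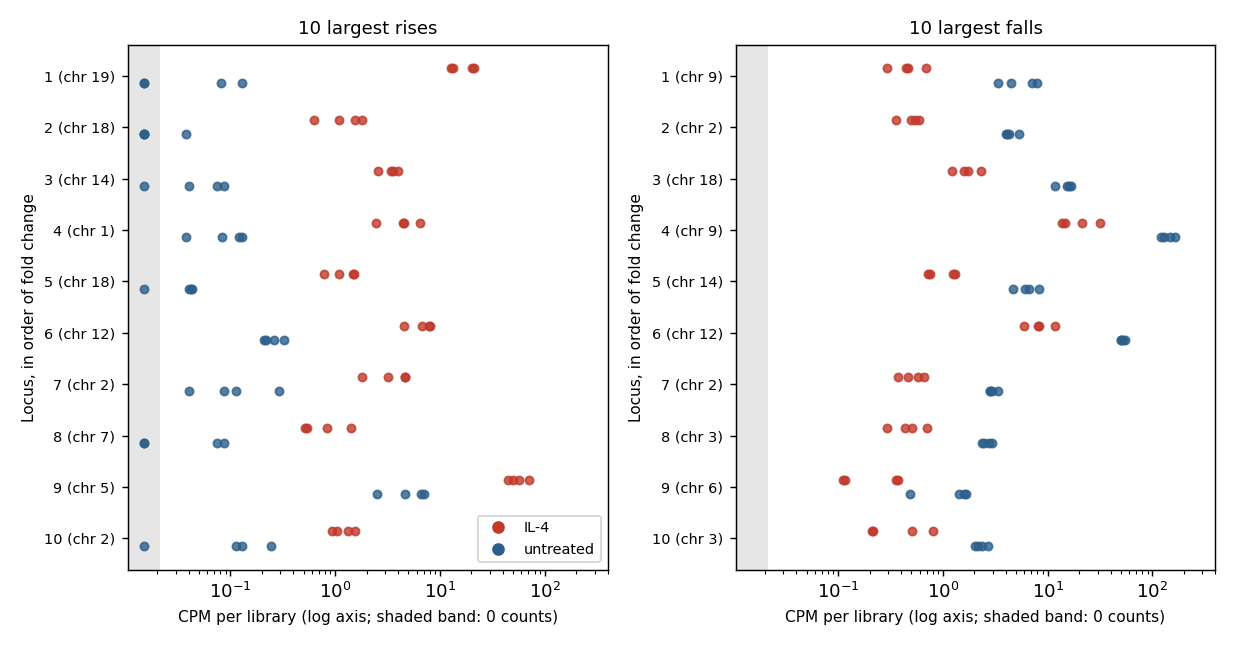
CPM in each library (log axis, points in the shaded band are libraries with 0 counts) for the 10 largest rises (left) and the 10 largest falls (right) among called very long loci whose groups do not overlap; IL-4 in red above untreated in blue, loci in order of fold change. The rise on chromosome 5 (row 9) is the highest in IL-4 cells at a mean of 55.4 CPM, and the fall on chromosome 9 (row 4) the highest in untreated cells at a mean of 139.7 CPM; most other named loci stay under 10 CPM in both groups.

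Neighbouring very long loci were called in the same direction and in opposite directions, and a pair on chromosome 2 is an example of opposite ones. The locus at chr2:134611900-135300994 had 0.929, 1.04, 1.54 and 1.33 CPM in IL-4 libraries, against 0.242, 0.112, 0.130 and 0 CPM in untreated libraries (log2 fold change 3.36 ± 0.44; edgeR, adjusted p = 7.94e-05). The next very long locus on the same strand begins 184.3 kb further on, at chr2:135485283-135840324, and had 0.464, 0.576, 0.376 and 0.665 CPM in IL-4 libraries, against 3.35, 2.92, 2.82 and 2.84 CPM in untreated libraries (-2.39 ± 0.20; adjusted p = 2.12e-06). Both are among the loci chosen for groups that do not overlap. Of 133 pairs of neighbouring tested loci less than 1 Mb apart, both were called in 59, with the same direction in 33 and opposite directions in 26. As 63.7% of single tested loci were called, nothing particular to neighbours is read from these counts. The pairs were looked at after the values were seen.

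Most of the 8 most abundant very long loci had log2 fold changes under 1 in size. The first by FPKM, at chr11:34126828-34598023 with 52 exons over 470.5 kb, had 1390, 1477, 1493 and 1309 CPM in IL-4 libraries, against 909.0, 1046, 1113 and 977.3 CPM in untreated libraries. All IL-4 libraries lay above all untreated libraries, and the locus rose by 0.59 ± 0.07 on the log2 scale (SE; edgeR, adjusted p = 4.57e-05), and its whole FPKM, 156.9 ± 9.77 with IL-4 and 108.8 ± 9.55 without (SD, n = 4 each), lay on transcripts of 200 kb or more. Loci at chr16:84954681-85173952 and chr6:32741079-33010252 also rose, by 0.49 ± 0.10 and 0.64 ± 0.06 (adjusted p = 0.00196 and 3.47e-06).

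A fall was called at chr1:84032868-84337685, with 177.1, 165.0, 159.2 and 194.6 CPM in IL-4 libraries, against 282.3, 314.5, 292.4 and 365.8 CPM in untreated libraries (log2 fold change -0.74 ± 0.10; edgeR, adjusted p = 9.40e-05). Its reference transcript of 3 exons over 248.4 kb held 97.9% of the FPKM with IL-4 and 98.1% without. At chr16:52249109-52453110 the level was 711.8 ± 49.9 CPM in IL-4 cells and 847.4 ± 102.6 CPM in untreated cells (SD, n = 4 each), which was not called (log2 fold change -0.14 ± 0.09; edgeR, adjusted p = 0.226), but was called without untreated replicate 1 (-0.22; adjusted p = 0.0242). Loci at chr9:47338308-47661517 and chr2:154616813-154876748 were not called either (adjusted p = 0.126 and 0.143), although their CPM did not overlap between groups: 305.5 ± 7.33 with IL-4 and 353.7 ± 8.34 without, and 71.6 ± 1.63 with IL-4 and 84.7 ± 7.14 without. These CPM take in the total count alone, whereas the tested fold change also takes in the TMM factors.

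The remaining locus of the 8 most abundant, at chr18:88857459-89068842, shares 78.8% of its exonic positions with another locus. It had 80.8 ± 3.64 FPKM with IL-4 and 31.5 ± 1.82 without, but only 2.28 ± 0.574 CPM with IL-4 and 0.755 ± 0.148 CPM without (SD, n = 4 each), and it rose in counts by 1.69 ± 0.22 on the log2 scale (edgeR, adjusted p = 8.50e-05). Nearly all of its FPKM lay on transcripts under 200 kb. The count of this locus is uncertain because of the shared exonic positions.

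Besides the locus on chromosome 12, the 6 longest tested loci held 2 that were called. The locus at chr3:84299470-85691440, 1391 kb long, rose by 0.24 ± 0.06 on the log2 scale (edgeR, adjusted p = 0.00454), with 103.4 ± 1.47 CPM with IL-4 and 94.3 ± 2.68 CPM without. Nearly all of its FPKM lay on short transcripts: a reference transcript of 9 exons and 86.6 kb held 81.3% with IL-4 and 75.2% without. The locus at chr5:18732864-20211867, 1478 kb long, fell by 0.41 ± 0.15 on the log2 scale (adjusted p = 0.0457), with 2.03 ± 0.050 CPM with IL-4 and 2.90 ± 0.548 CPM without. That call was lost with the replicate number as a block (adjusted p = 0.0514), with RLE scaling (0.0543), with no count filter (0.0726), with DESeq2 (0.0871), without both replicate 4 libraries (0.0853), and when any library but untreated replicate 1 was left out (0.0549 to 0.140).

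The other 3 of the longest were not called. These were chr2:140221166-142215786 (1.31 ± 0.278 CPM with IL-4 and 0.969 ± 0.242 without; edgeR adjusted p = 0.0791), chr14:10382608-11994546 (2.51 ± 0.576 with IL-4 and 2.28 ± 0.342 without; adjusted p = 0.302) and chr12:41750677-43056573 (1.52 ± 0.289 with IL-4 and 2.35 ± 0.652 without; adjusted p = 0.0902). The last was called lower with the replicate block (adjusted p = 0.0402) and without untreated replicate 1 (0.00822).

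A locus enters the set by its longest reference transcript, but that transcript need not be the one that is expressed. At the 342 loci with at least 1 FPKM in at least 4 libraries, transcripts of 200 kb or more held a median of 82.9% of the locus FPKM (quartiles 40.2% and 97.8%). They held at least 90% at 143 loci, under 50% at 100 and under 10% at 46. The long transcripts' share was alike in both groups at most loci: the median was 81.4% with IL-4 and 83.6% without, and the group means lay within 5 percentage points of each other at 264 loci. In counts, 57.3% of the 143 loci with at least 90% on long transcripts were called. The shares were 68.2% of the 151 tested loci with 10% to 90% and 63.6% of the 44 tested loci with under 10%. The minimum of 4 libraries is also the size of a group, so a locus could enter through the group where it is high. The 51.8% called over all tested loci had no such filter, so these shares cannot be set against it. By direction the classes held, in the same order, 44 higher and 38 lower, 37 higher and 66 lower, and 15 higher and 13 lower. The classes were not tested against each other. FPKM per transcript were estimated by the authors' software from reads that transcripts of a locus share, and their depth is unknown.

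The share of the long transcripts was lower with IL-4 by 20 percentage points or more at 9 loci and higher by as much at 3. The largest drop was at chr4:95224198-95593636, with 19.7% ± 2.29 in IL-4 cells and 91.8% ± 4.13 in untreated cells (SD, n = 4 each). Next came chr3:64753145-65196554, with 3.76% ± 7.498 with IL-4 and 55.6% ± 21.2 without, where 69.3% of the exonic positions are shared with another locus. In the other direction, the share at chr9:47970111-48208024 was 74.9% ± 18.2 with IL-4 and 29.2% ± 15.3 without, while its total FPKM was 0.766 ± 0.103 with IL-4 and 1.82 ± 0.362 without. At chr1:162149113-162723069 it was 96.9% ± 2.51 with IL-4 and 72.6% ± 7.23 without. At all 4 loci every IL-4 library lay on the same side of every untreated library. The 4 were chosen for large differences in mean share, which favours such separation. These shares are descriptions with no test of their own.

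**Figure D4:**
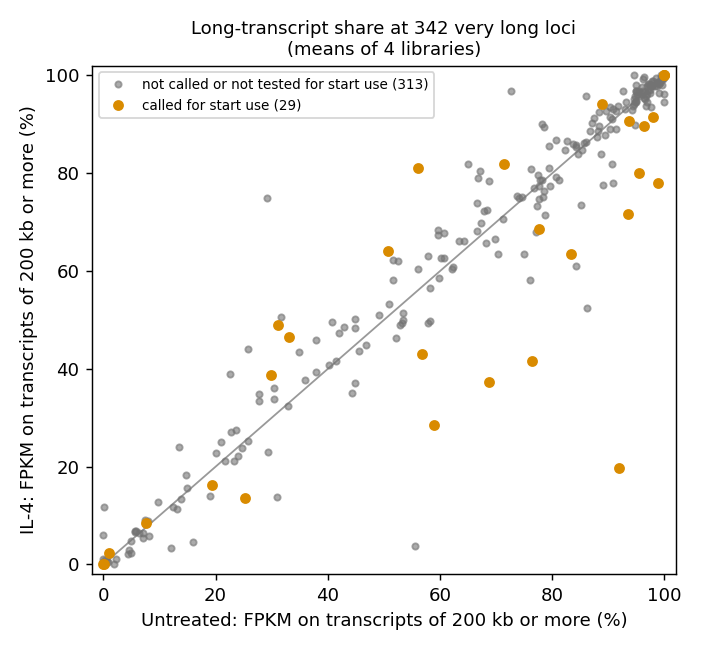
Percent of the locus FPKM on transcripts of 200 kb or more in IL-4 cells (vertical axis) against untreated cells (horizontal axis), means of 4 libraries, for the 342 very long loci with at least 1 FPKM in 4 libraries; the line marks equal shares and orange points are the 29 loci called for start-site use. Of the 342 loci, 264 lie within 5 points of equality, and the point at 19.7% with IL-4 and 91.8% untreated is the locus on chromosome 4.

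Start-site use was tested at 108 of the 660 very long loci with several start sites, those with at least 2 starts at 1 FPKM or more in at least 4 libraries. The relative use of starts changed at 29 of the 108 loci (26.9%), against 20.9% of all 2437 loci tested and 20.7% of the coding loci outside the set (limma on the log2 ratio of each start to the rest of its locus, Simes p per locus, adjusted p under 0.05). With the replicate block 27 were called, 26 of them also without it; the calls at chr17:10595407-11033057, chr4:123024507-123361603 and chr1:178738269-178955748 were lost (adjusted p = 0.0711, 0.0913 and 0.0521). The count was 17 of 95 tested loci without IL-4 replicate 2 and 12 of 85 without both replicate 4 libraries, settings that also leave fewer starts past the filter. In locus counts, 13 of the 29 rose, 12 fell and 4 were not called, against 166, 166 and 149 of the 481 other loci called for start use. The minimum of 4 libraries is also the size of a group, so a start can enter the test through the group where it is high, and such a start had to differ. At 12 of the 29 loci a start reached 1 FPKM in all libraries of a group and in none of the other. With starts kept by a mean of at least 1 FPKM over all 8 libraries, without regard to group, 25 of 100 loci were called, and the 25 are among the 29; this setting was added after seeing the data. The share of all loci called is not given for this filter or for fewer libraries. These counts therefore do not show whether the set stands above all loci there.

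At these loci the start that gained and the start that lost the most share lay far apart, at a median distance of 134.3 kb, against 8.52 kb at the 481 other called loci. The distance was 50 kb or more at 19 of the 29 loci (65.5%), against 56 of the 481 (11.6%); long loci leave more room for distance, and no test was made. A start changed its share by 20 points or more at 11 of the 29 (37.9%), against 86 of the 481 (17.9%). The gaining start lay downstream of the losing one at 18 of the 29 loci (62.1%), against 263 of the 481 (54.7%). The losing start was that of a transcript of 200 kb or more at 19 loci and the gaining start at 12.

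The largest change in start use was at chr4:95224198-95593636, on the plus strand. A start 353.5 kb inside the locus, at position 95577717, from which only assembled transcripts of 3 and 4 exons and 406 to 493 exonic nt begin, carried 82.4%, 81.8%, 79.8% and 77.4% of the locus FPKM in IL-4 libraries, against 10.9%, 5.0%, 12.5% and close to 0 in untreated libraries. The start at the 5' end of the locus, where the 369.4 kb reference transcript begins, carried 16.96%, 17.2%, 19.2% and 21.9% in IL-4 libraries, against 83.0%, 89.4%, 81.0% and 90.4% in untreated libraries. The inner start led in every IL-4 library and the outer start in every untreated library (adjusted p = 2.32e-05). In FPKM the inner start stood at 35.9 ± 2.37 with IL-4 and 1.003 ± 0.805 without, and the outer start at 8.39 ± 0.707 with IL-4 and 12.2 ± 1.02 without (SD, n = 4 each).

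Counts of the whole locus hardly showed this. They were 38.7 ± 0.684 CPM with IL-4 and 36.2 ± 2.40 CPM without, which is 0.20 ± 0.07 on the log2 scale (SE; edgeR, adjusted p = 0.0341). It was no longer called without both replicate 4 libraries (0.117) and when IL-4 replicate 3 or 4 or untreated replicate 2, 3 or 4 was left out (0.0506 to 0.0955). FPKM divides by transcript length, so a read on the short inner transcripts weighs more in FPKM than a read on the long ones.

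At chr6:97756058-97971352, on the plus strand, the gained start lies 22.2 kb downstream of the lost one and is known only from assembled transcripts, of 10 exons and up to 192.1 kb. It held 54.8%, 61.2%, 67.7% and 44.1% of the FPKM in IL-4 libraries, against 15.6%, 22.2%, 26.0% and 23.4% in untreated libraries, and the reference start upstream held 31.4% ± 1.401 with IL-4 and 62.0% ± 8.53 without (SD, n = 4 each; adjusted p = 0.0022). The groups did not overlap for either start, which the choice of the largest changes favours. The level at the inner start was 26.6 ± 3.80 FPKM with IL-4 and 8.12 ± 1.92 without, and the locus rose by 0.46 ± 0.12 in counts (edgeR, adjusted p = 0.00657). With diffSplice in place of the ratio this locus was not called (adjusted p = 0.542).

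At chr13:31911451-32430413 and chr10:59766022-60159238, both on the minus strand, the inner start gained share and the outer one had less FPKM with IL-4. On chromosome 13 a start 356.5 kb inside held 58.5% ± 9.74 with IL-4 and 23.6% ± 5.97 without, at 1.78 ± 0.310 FPKM with IL-4 and 1.41 ± 0.438 without (SD, n = 4 each; adjusted p = 0.00263). The outer start, of a 519.0 kb transcript, stood at 1.27 ± 0.307 FPKM with IL-4 and 4.54 ± 0.800 without. On chromosome 10 the inner start, 390.8 kb inside, belongs to a reference transcript of 3 exons and 2.38 kb and held 59.6% ± 5.03 with IL-4 and 29.8% ± 4.29 without (adjusted p = 0.000272), and the outer start stood at 0.964 ± 0.0324 FPKM with IL-4 and 2.67 ± 0.164 without. Total counts fell at both loci, by 1.24 ± 0.13 and 1.20 ± 0.06 on the log2 scale (edgeR, adjusted p = 1.24e-05 and 6.39e-08). On chromosome 10, 32.9% of the exonic positions are shared with another locus, the outer start reached 1 FPKM in untreated libraries alone, and the start test could not be made when any of them was left out.

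At the other 4 of the 8 largest changes the gaining start lay upstream of the losing one. At chr7:82600420-82899497 a start of assembled transcripts of 27 to 29 exons, 32.3 kb upstream of the main one, held 30.0%, 28.5%, 23.7% and 19.0% in IL-4 libraries, against 0.122%, 3.15%, close to 0 and 3.04% in untreated libraries (adjusted p = 0.00019); it reached 1 FPKM in IL-4 libraries alone. At chr9:71692041-71959676 the outer start of the 267.6 kb transcript gained, with 82.3% ± 3.59 with IL-4 and 58.3% ± 4.05 without; the inner start stood at 0.934 ± 0.241 FPKM with IL-4 and 4.16 ± 0.470 without and the outer one had 6.15 ± 0.116 with IL-4 and 6.597 ± 0.751 without (SD, n = 4 each; adjusted p = 0.000609). At chr9:40100481-40339297 a start 210.2 kb inside, of an assembled transcript of 28.6 kb, held 3.34% ± 0.705 with IL-4 and 27.96% ± 4.91 without (adjusted p = 3.73e-05); that start reached 1 FPKM in untreated libraries alone, and the locus could not be tested when 1 of them was left out. At chr3:15371209-15906383 the outermost start held 52.9% ± 1.62 with IL-4 and 25.7% ± 1.18 without (adjusted p = 4.47e-05), at nearly equal levels of 9.38 ± 1.12 FPKM with IL-4 and 8.81 ± 2.43 without, while the locus as a whole fell by 0.58 ± 0.16 in counts (edgeR, adjusted p = 0.0117); it joins reference transcripts that do not overlap.

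**Figure D5:**
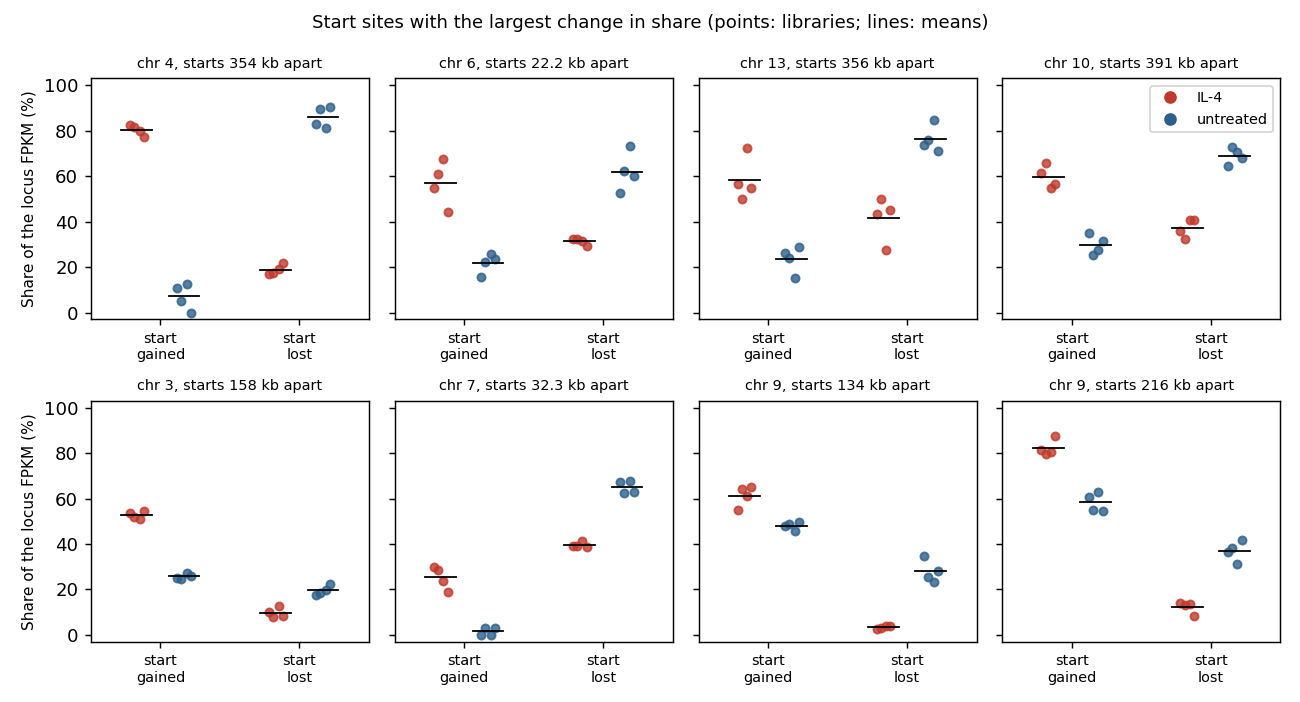
Share of the locus FPKM (percent) carried by the start that gained most and the start that lost most with IL-4, at the 8 very long loci with the largest change, named by chromosome and distance between the starts; points are libraries (IL-4 red, left; untreated blue, right) and lines are group means. On chromosome 4 the gained start lies between 77.4% and 82.4% in IL-4 libraries and at 12.5% or less in untreated libraries. No pair of groups overlaps in any panel, but the loci were chosen as called ones with the largest change, which favours separation.

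Some inner starts passed the filter through the IL-4 libraries alone, which together with their choice after the values were seen fixes a low level in untreated cells; they are given as a description. At chr5:140484642-140799873 an assembled start 174.4 kb inside, with an 8-exon transcript, held 18.7%, 24.4%, 23.3% and 20.3% of the FPKM in IL-4 libraries, against 0.830%, 0.835%, 1.14% and close to 0 in untreated libraries. At chr9:63011573-63232979 a start 139.8 kb inside held 17.3%, 16.8%, 10.98% and 14.5% in IL-4 libraries, against 1.89% in untreated replicate 2 and close to 0 in the other untreated libraries. Another assembled start there, 139.6 kb inside, did not pass the filter and was not tested. It held 8.07%, 9.32%, 19.6% and 6.91% in IL-4 libraries, against 2.51%, 2.13%, 5.32% and 4.38% in untreated libraries. Counts rose by 0.25 on the log2 scale at chr5:140484642-140799873 (edgeR, adjusted p = 0.0184), and at chr9:63011573-63232979 the log2 fold change was 0.10 (adjusted p = 0.284).

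The spans of very long loci hold other loci. In all, 458 loci lay wholly inside 163 of the 465 tested very long loci, and 126 of them, in 73 hosts, had enough counts to be tested. Of the 126, 61 were protein-coding, 41 annotated non-coding and 24 without a reference transcript, 38 lay on the strand of the host and 88 on the other. RNA of 30 inner loci rose and that of 36 fell (23.8% and 28.6% of the 126, against 25.6% and 26.2% of all tested loci). Host and inner locus were both called in 48 pairs and had the same direction in 35, 9 of 12 on the same strand and 26 of 36 on opposite strands. Some inner loci share exonic positions with other loci, such as 89.8% at chr7:134716862-134726822, and the pairs are not split by such sharing here. No like count was made for loci inside shorter hosts, so the counts are given as a description.

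A single host weighs on that count. At chr7:134375689-134776537, where a 3-exon reference transcript spans 399.6 kb over many shorter loci, the host fell by 0.59 on the log2 scale (9.62 ± 1.10 CPM with IL-4 and 15.6 ± 1.08 without; edgeR, adjusted p = 0.000429). Of 19 tested loci inside it, 10 fell, 0 rose and 9 were not called, and without this host 38 pairs were called on both sides, 25 of them with the same direction. Host and inner loci can also differ. At chr17:34363120-34729047 the host was not called (0.277 ± 0.122 CPM with IL-4 and 0.457 ± 0.153 without; adjusted p = 0.198), while 5 of the 6 tested loci inside it rose, the highest being chr17:34419696-34424716 at 1947 ± 412.9 CPM with IL-4 and 509.0 ± 189.2 without. The non-coding loci among the 5 lie within the span of that highest locus, on its strand, and may not be separate from it.

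At chr17:70318708-71170753 the host rose by 2.62 on the log2 scale from a low level (0.777 ± 0.352 CPM with IL-4 and 0.131 ± 0.0438 without; edgeR, adjusted p = 0.00045). A non-coding locus of 16 exons on the opposite strand within it, at chr17:71009247-71155399, stood at 117.7 ± 17.02 CPM with IL-4 and 13.8 ± 2.66 without (log2 fold change 3.20; adjusted p = 3.11e-08). At chr3:64753145-65196554 the host rose by 0.94 (adjusted p = 5.44e-05) and an inner non-coding locus on the opposite strand by 4.26 (2.80 ± 0.630 CPM with IL-4 and 0.151 ± 0.066 without; adjusted p = 6.43e-07). At chr2:32988899-33226998 the host fell by 0.87 (adjusted p = 0.000517), whereas a coding locus on the opposite strand inside it rose by 1.69 (166.7 ± 3.04 CPM with IL-4 and 55.8 ± 3.87 without; adjusted p = 5.50e-09); 28.8% of the inner locus's exonic positions are shared. Whether reads of one strand were counted on a locus of the other was not tested.

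At the threshold, the members with the smallest spans were chr15:4325491-4525579 at 200089 nt with 0 counts, chr10:76224519-76424692 at 200094 nt with 1.68 CPM in IL-4 cells and 1.79 CPM in untreated cells, and chr2:34026984-34227556 at 200128 nt with 4.497 CPM in IL-4 cells and 6.33 CPM in untreated cells. The largest spans just under it were 199918 nt at chr18:80930880-81130808, with 148.0 CPM in IL-4 cells and 155.1 CPM in untreated cells, 199669 nt at chr16:48431350-48631018 with 0 counts, and 199540 nt at chr16:10545432-10745054, with 50.5 CPM in IL-4 cells and 32.8 CPM in untreated cells.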

How the data were processed

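RNA of 8 libraries (4 with IL-4, 4 untreated) was measured after ribosomal RNA depletion, per the labels' protocols. The submitters' processing notes name CASAVA 1.8.2, TopHat2 2.0.9, Cufflinks 2.1.1, HTSeq and the mm9 build. The authors deposited raw read counts per locus and FPKM per transcript, with the merged annotation from which spans were taken; the depth behind an FPKM is unknown. CPM were computed here from the deposited counts and their column totals.

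Counts of all loci were fitted with edgeR 4.0.16 (TMM factors, filterByExpr, quasi-likelihood test) in R 4.3.3, with p-values adjusted over all tested loci. Start-site use was tested with limma 3.58.1 on the log2 ratio of a start's FPKM to the rest of its locus, with a pseudocount of 0.1, over starts with at least 1 FPKM in at least 4 libraries, and a Simes p per locus. Both were also run on simulated data, and the outcome is not given here. DESeq2 1.42.0 and the other settings of the closing section were alternatives.

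The loci described are the 10 largest rises and 10 largest falls among called loci with groups that do not overlap, the 8 highest in FPKM, the 6 longest tested, the 8 largest changes in start share and the 3 on either side of the span threshold. Members and lists were chosen with earlier results of these data known. The 9 gene lists (230 symbols) and the cell type markers matched 0 identifiers and were not counted. Intervals (95%) and floors (3 counts) cover counting error only.

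Deviations of the libraries from their group means were correlated over 13761 loci. For libraries of the same replicate number the correlation was 0.39, 0.15, 0.23 and 0.18 for replicates 1 to 4. Libraries of different number ranged from -0.27 to 0.26, and IL-4 replicate 2 correlated more with untreated replicate 3 (0.26) than with its own number. All same-number values were above 0.1, but so were some values of different number (0.26, 0.13 and 0.12). The correlations therefore do not settle whether the number pairs the samples. Chromosome Y counts do match the replicate 4 libraries to each other, with 5525 in IL-4 replicate 4 and 5808 in untreated replicate 4. All other libraries held at most 7, so these counts say nothing of replicates 1 to 3. Whether the replicate 4 libraries came from the same animal was not tested. The main fits use no block, and a fit with the number as a block was an alternative.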

Additional observations from a re-analysis of the deposited data

Results flagged for a closer look

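Among 120 groups of 4 libraries checked for a library far from the rest, 8 were marked, and chance marks about 5% of such groups. At chr16:52249109-52453110, IL-4 replicate 4 stood at 786.6 CPM, with the other IL-4 libraries between 685.2 and 688.1, and untreated replicate 1 at 694.7 CPM, with the other untreated libraries between 882.6 and 914.7. Untreated replicate 1 also stood apart at chr2:154616813-154876748, with 95.4 CPM against 80.6 to 81.8 in the other untreated libraries, and at chr12:41750677-43056573, with 1.37 CPM against 2.60 to 2.71. Untreated replicate 4 was low at chr7:82600420-82899497, with 136.4 CPM against 151.2 to 154.1. IL-4 replicate 2 was high at chr9:40100481-40339297, with 59.0 CPM against 49.3 to 50.5 in the other IL-4 libraries. The remaining marks are of single reads or none: untreated replicate 2 had 0.0375 CPM at chr18:40418015-40692062, where the other untreated libraries had 0, and 0 CPM at chr18:75979832-76308218, where they had 0.0403 to 0.0433.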

How the results depend on the processing

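The counts of very long loci called higher (144) and lower (152) stayed within 1.5 times under RLE and upper-quartile scaling, other count filters, DESeq2 and without both replicate 4 libraries. Leaving out 1 library at a time gave 128 to 150 higher and 139 to 160 lower. A test against 1.5-fold left 71 higher and 59 lower, and a span of at least 300000 nt, with 212 loci tested, left 66 and 72. With the replicate number as a block, 159 were higher and 164 lower and 27 were called for start-site use; besides the calls given above, the block changed no call of a named locus. Start-site use was called at 29 loci, at 48 with a minimum of 0.2 FPKM (226 tested), at 7 with 5 FPKM (21 tested), at 13 with a span of at least 300000 nt (47 tested) and at 12 without both replicate 4 libraries (85 tested), settings that change how many loci are tested. The shares of all loci called under these settings are not given here. Leaving out 1 library at a time gave 17 to 27. A filter on the mean over all libraries, added after seeing the data, gave 25 of 100 tested loci, with the 8 named loci still called. Fold changes of named loci without both replicate 4 libraries were added after seeing the data. Low counts limit the largest rises, whose untreated libraries hold few or no reads.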
